A study of Gallus gallus and Dromaius novaehollandiae with 14 samples.

Results

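Genes with their highest expression in scutate scale epidermis of both the emu and the chicken were examined in embryonic skin. Each gene was given a score in each bird, which was the scutate scale mean of log2(TPM + 1) minus the highest of the feather, reticulate scale and claw means. TPM is the abundance of a transcript relative to its library, scaled to a fixed total and corrected for transcript length. Genes listed at a TPM of at least 5 in all 4 scutate scale samples were ranked by the lower of their emu and chicken scores. The 60 members were chosen by this rank among genes with a score above 0. Of the 8751 genes in the table, 5091 reached the TPM minimum and 149 of those scored above 0 in both birds. Because the scores come from the same samples, everything on scutate scale against the other appendages is a description and was not tested.

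Scutate scales are the big overlapping plates that cover the shank and the upper side of the toes of birds, whereas reticulate scales are small, rounded and lie under the foot. Both are made by the epidermis, as are feathers and claws. Scutate scales and feathers begin as a thickened patch of cells, the placode. Placodes form under signals passed between epidermis and dermis, among them Wnt, FGF, BMP, ectodysplasin and sonic hedgehog. Finished scutate scales, feathers and claws are hardened by alpha-keratins and by the corneous beta-proteins of birds and reptiles.

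Samples were placode tract epidermis of emu (Dromaius novaehollandiae) and chicken (Gallus gallus) embryos, separated from the dermis with dispase, and the labels give no genotype, strain or treatment that differs between groups. Emu eggs were incubated at 35.5 °C and chicken eggs at 37.8 °C, so that temperature and species cannot be told apart. Emu gave 2 scutate scale, 2 feather, 1 reticulate scale and 1 claw sample, and chicken gave 2 samples of each appendage. Scutate scale was taken at Hamburger and Hamilton stage 37, feather at 33 to 34, reticulate scale at 39 and claw at 36, so that stage and appendage cannot be told apart. The replicates are described as biological, but the sources used here do not say whether a sample is 1 embryo or several. In whole epidermis, fewer cells of a type and less RNA per cell cannot be told apart.

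The table lists Ensembl chicken gene IDs for both birds, and 0 of them could be paired with a gene symbol in the reference used. Members are therefore given by rank, with the ID for those among the first 20 that are described singly, and no function is assigned to them. For the same reason the epidermal identity of the samples was not checked against marker genes. Listed TPM summed to 550000 in each emu library and to between 500783 and 575133 in the chicken libraries. The sequencing depth behind these values is unknown. The 2 chicken claw libraries had the lowest median TPM over the 7563 tested genes, at 14.9 and 16.8, against 21.1 to 24.6 in the other 12. They also differed most from each other, with an SD of the log2 difference between replicates of 0.67, against 0.27 to 0.42 in the other 5 replicated groups.

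Few genes stood highest in scutate scale in both birds, and for most of them the margin was small. The lower of the scores was 1.15 for the gene at rank 1, had a median of 0.14 over the 60 members and was 0.077 at rank 60. It was at least 1 for 2 members, at least 0.5 for 7 and under 0.2 for 40. The score in emu ranged from 0.077 to 1.88 with a median of 0.19, and the score in chicken from 0.078 to 1.77 with a median of 0.21. There was no step at the last rank. Ranks 58 to 60 had lower scores of 0.079, 0.078 and 0.077, and ranks 61 to 63, outside the members, had 0.076, 0.072 and 0.071.

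The same rule was applied to the other appendages, each with its own TPM minimum. Scores above 0 in both birds were found for 149 of 5091 genes (2.93%) in scutate scale, 972 of 5199 (18.7%) in feather, 665 of 5206 (12.8%) in reticulate scale and 417 of 4833 (8.63%) in claw. A lower score of at least 0.5 was reached by 7 genes for scutate scale, 50 for feather, 46 for reticulate scale and 83 for claw. Within a single bird, scutate scale was highest for 11.9% of its genes in emu and 22.5% in chicken. The corresponding shares were 33.2% in emu and 42.1% in chicken for feather, 31.9% in emu and 25.7% in chicken for reticulate scale, and 27.9% in emu and 15.8% in chicken for claw. Scutate scale thus had the smallest share of the 4 appendages in emu, whereas in chicken claw did. Emu reticulate scale and emu claw are 1 library each, and the chicken claw libraries had the lowest median TPM. The part of either in these shares was not tested. These counts are a description of the 8 group means, and the difference between appendages was not tested.

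**Figure D1:**
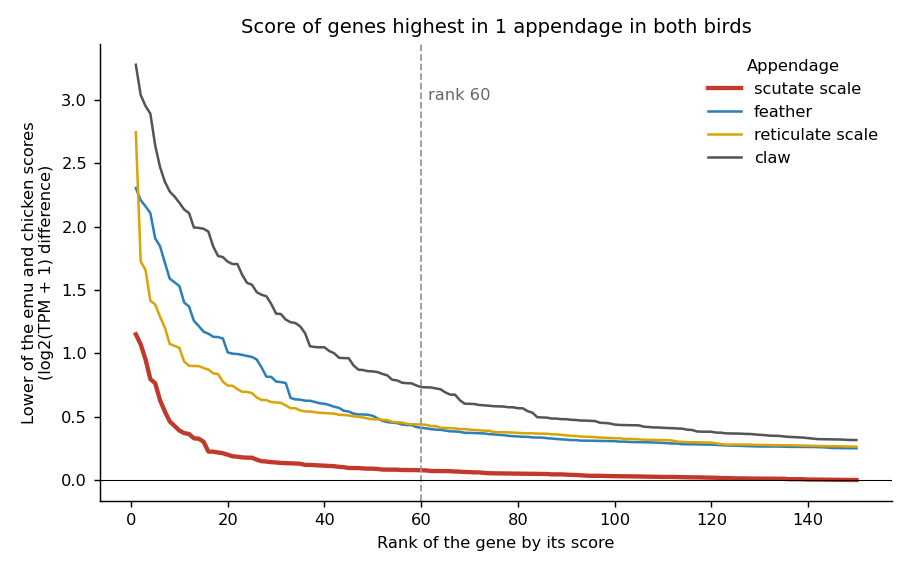
The lower of the emu and chicken scores (vertical axis, difference in log2(TPM + 1)) is plotted against the rank of the gene (horizontal axis) for the rule applied to scutate scale, feather, reticulate scale and claw, with a dashed line at rank 60. The scutate scale curve starts at 1.15 and lies below the other 3 over all ranks drawn, reaching 0.077 at rank 60, where feather is at 0.41, reticulate scale at 0.44 and claw at 0.73.

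The 7 members with a lower score of at least 0.5 are described sample by sample. ENSGALG00000006387, at rank 1, had 8.61 and 9.64 TPM in emu scutate scale, against 1.91 and 1.60 in feather, 0.605 in reticulate scale and 0.30 in claw. The chicken samples held 9.98 and 14.7 TPM in scutate scale, against 0.831 and 0.379 in feather, 8.17 and 2.82 in reticulate scale and 0.566 and 0.487 in claw. Scutate scale lay above all other samples of the same bird, but a chicken reticulate scale sample came close to it while the emu reticulate scale sample did not. Its scores were 1.88 in emu and 1.15 in chicken.

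ENSGALG00000017119, at rank 2, was far more abundant. It had 598 and 574 TPM in emu scutate scale, against 222 and 256 in feather, 137 in reticulate scale and 180.1 in claw. Chicken scutate scale had 300.1 and 299 TPM, against 115 and 120.0 in feather, 34.4 and 51.7 in reticulate scale and 95.2 and 212 in claw. Its replicates in scutate scale were close together in both birds, the groups did not overlap, and reticulate scale was lowest in both. The scores were 1.29 in emu and 1.07 in chicken.

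ENSGALG00000019304, at rank 3, had 399.5 and 346 TPM in emu scutate scale, against 126.3 and 110.7 in feather, 41.5 in reticulate scale and 0.871 in claw. Its values in chicken were 339 and 182 TPM in scutate scale, against 88.4 and 76.0 in feather, 133 and 124 in reticulate scale and 22.0 and 21.6 in claw. Claw was lowest in both birds, and the chicken scutate scale replicates lay far apart (261 ± 111 TPM, SD, n = 2). ENSGALG00000017041, at rank 4, had 48.7 and 43.7 TPM in emu scutate scale, against 9.01 and 8.65 in feather, 16.96 in reticulate scale and 23.7 in claw. In chicken it had 44.8 and 28.6 TPM in scutate scale, against 5.67 and 4.91 in feather, 26.8 and 15.2 in reticulate scale and 19.97 and 15.6 in claw. For this gene feather was the lowest appendage in both birds, although the lower chicken scutate scale value was close to the higher reticulate scale value.

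ENSGALG00000016809, at rank 5, had 82.4 and 86.1 TPM in emu scutate scale, against 46.9 and 46.2 in feather, 21.2 in reticulate scale and 34.3 in claw. In chicken it had 141 and 109 TPM in scutate scale, against 71.0 and 74.2 in feather, 34.8 and 39.7 in reticulate scale and 8.70 and 12.3 in claw. Feather came next after scutate scale in both birds, with no overlap. ENSGALG00000002282, at rank 6, had 44.2 and 112 TPM in emu scutate scale, against 27.1 and 20.7 in feather, 45.3 in reticulate scale and 40.7 in claw. Values in chicken were 43.5 and 28.9 TPM in scutate scale, against 19.8 and 21.3 in feather, 10.95 and 20.6 in reticulate scale and 3.08 and 3.53 in claw. In emu a single scutate scale sample stood apart while the other lay just under the reticulate scale sample, so its emu score of 0.63 rests on replicate 2.

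ENSGALG00000001370, at rank 7, had 20.01 and 15.8 TPM in emu scutate scale, against 10.9 and 9.2 in feather, 11.9 in reticulate scale and 7.13 in claw. Chicken samples had 16.6 and 5.41 TPM in scutate scale, against 2.63 and 2.53 in feather, 2.95 and 2.45 in reticulate scale and 0.941 and 3.49 in claw. Both scutate scale values were above the rest in each bird, but the chicken replicates were 1.46 log2 units apart and the lower was close to the TPM minimum of 5.

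**Figure D2:**
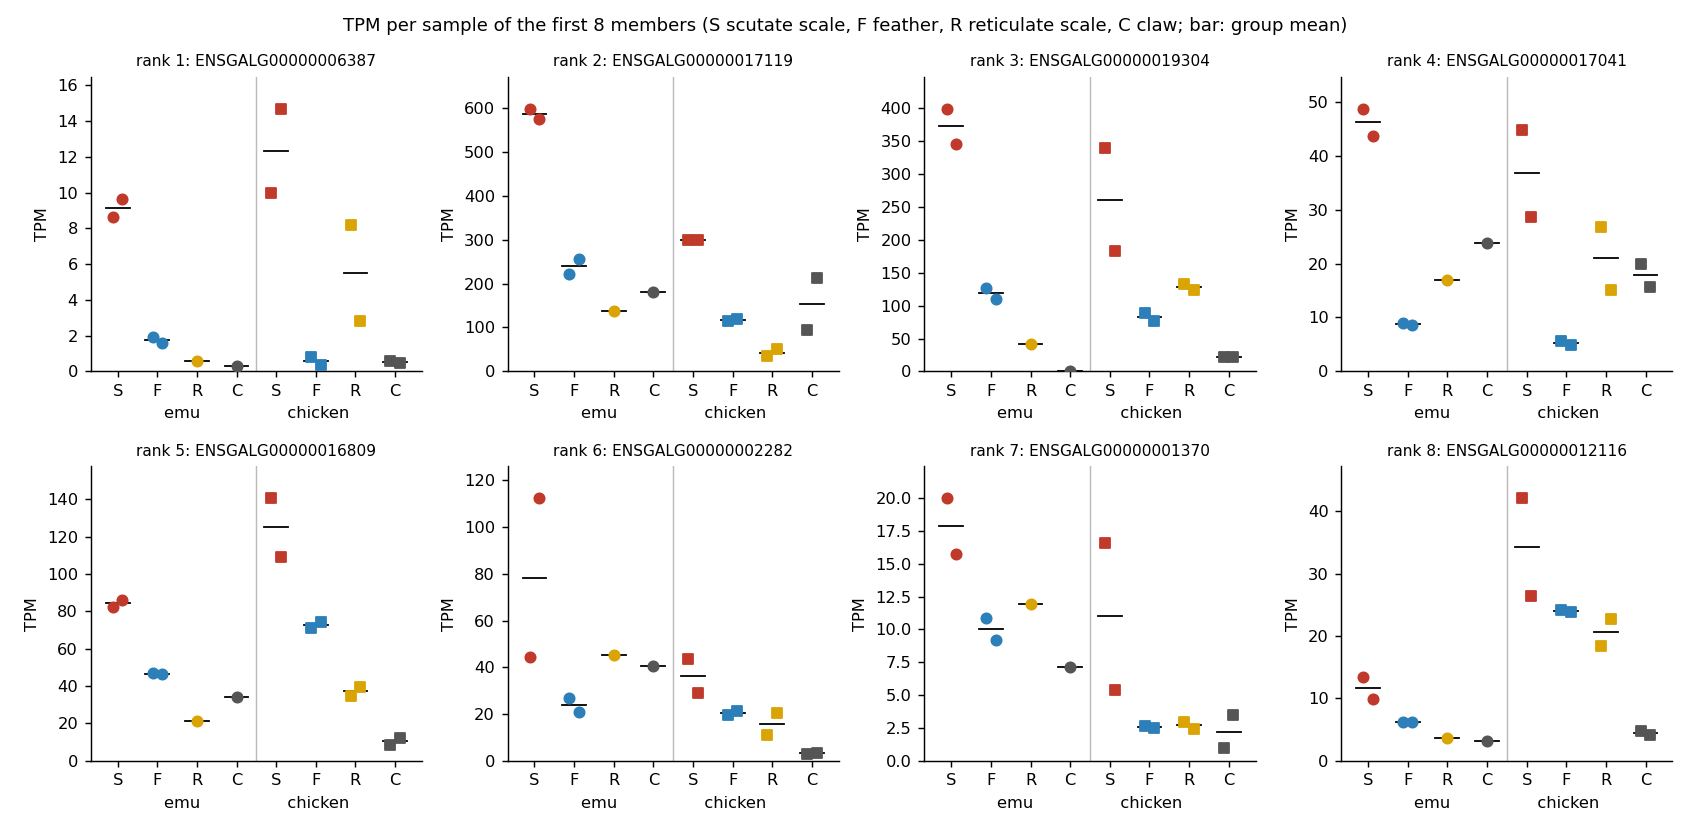
TPM (vertical axes, linear and starting at 0) of the members at ranks 1 to 8 in every sample, with emu as circles on the left and chicken as squares on the right of each panel. Letters give scutate scale (S), feather (F), reticulate scale (R) and claw (C), and the bars are group means. Scutate scale points lie above the other points of the same bird in all 8 panels except rank 6, where 1 emu scutate scale sample, at 44.2 TPM, lies below the reticulate scale sample at 45.3.

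Margins were smaller at ranks 8 to 20, with lower scores of 0.20 to 0.46. Scutate scale samples lay above every other sample in both birds for 9 of these 13 members, against 0.432% of the 5091 genes. The rule ranked genes on these values, so nothing is read from that count. ENSGALG00000004937, at rank 9, had 220.3 and 214.6 TPM in emu scutate scale, against 110.0 and 121.9 in feather, 130.3 in reticulate scale and 123.1 in claw. Its chicken values were 167.3 and 154.0 TPM in scutate scale, against 118.6 and 119.8 in feather, 92.6 and 94.9 in reticulate scale and 91.3 and 87.0 in claw. In emu the other appendages lay close together at a lower level for this gene, whereas in chicken feather lay above reticulate scale and claw. ENSGALG00000000894, at rank 14, had 427 and 422 TPM in emu scutate scale, against 335 and 342 in feather, 287 in reticulate scale and 92.6 in claw. Its chicken values were 280.2 and 227 TPM in scutate scale, against 198.9 and 195.0 in feather, 66.5 and 70.7 in reticulate scale and 9.16 and 32.02 in claw. The order of the 4 appendages was thus the same in both birds, with feather next to scutate scale and claw lowest. ENSGALG00000015701, at rank 17, had 206 and 205 TPM in emu scutate scale, against 162 and 176 in feather, 162 in reticulate scale and 126.5 in claw. In chicken it had 147.1 and 149.1 TPM in scutate scale, against 127 in both feather samples, 105.2 and 115.4 in reticulate scale and 13.03 and 29.99 in claw. Replicates of scutate scale nearly coincided in both birds here, and claw was again lowest. The genes at ranks 13, 15 and 20 also did not overlap in either bird. ENSGALG00000004021, at rank 13, had 43.1 and 40.2 TPM in emu scutate scale, against 13.3 to 27.6 in the other emu samples, and 72.9 and 67.8 TPM in chicken scutate scale, against 32.06 to 56.7 in the other chicken samples. ENSGALG00000008764, at rank 15, had 16.2 and 16.9 TPM in emu scutate scale, against 3.14 to 12.1, and 36.3 and 31.3 TPM in chicken scutate scale, against 15.7 to 27.6. ENSGALG00000015943, at rank 20, had 37.4 and 42.6 TPM in emu scutate scale, against 19.7 to 30.01, and 16.1 and 15.3 TPM in chicken scutate scale, against 3.34 to 14.4. Claw was the lowest appendage by its mean for all 3 in both birds. Of the 4 members at ranks 8 to 20 whose groups overlapped in a bird, rank 10 did so in chicken through claw replicate 2 (27.2 TPM, against 24.9 in scutate scale replicate 2). Rank 19 did so in chicken through reticulate scale replicate 2 (24.5 TPM, against 23.1 and 22.9 in scutate scale), and rank 16 in emu through feather replicate 1 (97.2 TPM, against 94.0 in scutate scale replicate 1).

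The margin of most members was set beside the gap between the 2 scutate scale replicates of the same bird. That gap had a median of 0.14 log2 units in emu and 0.24 in chicken. The score was larger than the gap for 40 members in emu, for 36 in chicken and for 25 in both. Of the first 20 members 16 had scores above the gap in both birds, and of the 40 members at ranks 21 to 60 only 9 did. Scutate scale samples lay above every other sample of the same bird for 39 members in emu, 33 in chicken and 22 in both. These 22 were all the genes of this kind among the 5091 (0.432%), and 15 of them were among the first 20. For a single bird the share over the 5091 genes was not computed. The rule used this contrast, so nothing is read from that share or from the counts in each bird. In chicken, scutate scale replicate 1 was above replicate 2 for 17 of the first 20 members and for 21 of the other 40, against 41.5% of the 5091 genes. In emu, replicate 1 was above replicate 2 for 12 of the first 20 and 12 of the other 40, against 31.6%. When the rule was applied without chicken scutate scale replicate 2, 37 of the 60 genes were chosen again, and without replicate 1, 41 were. Without the emu reticulate scale sample, 26 were chosen again, from 350 genes that then scored above 0.

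**Figure D3:**
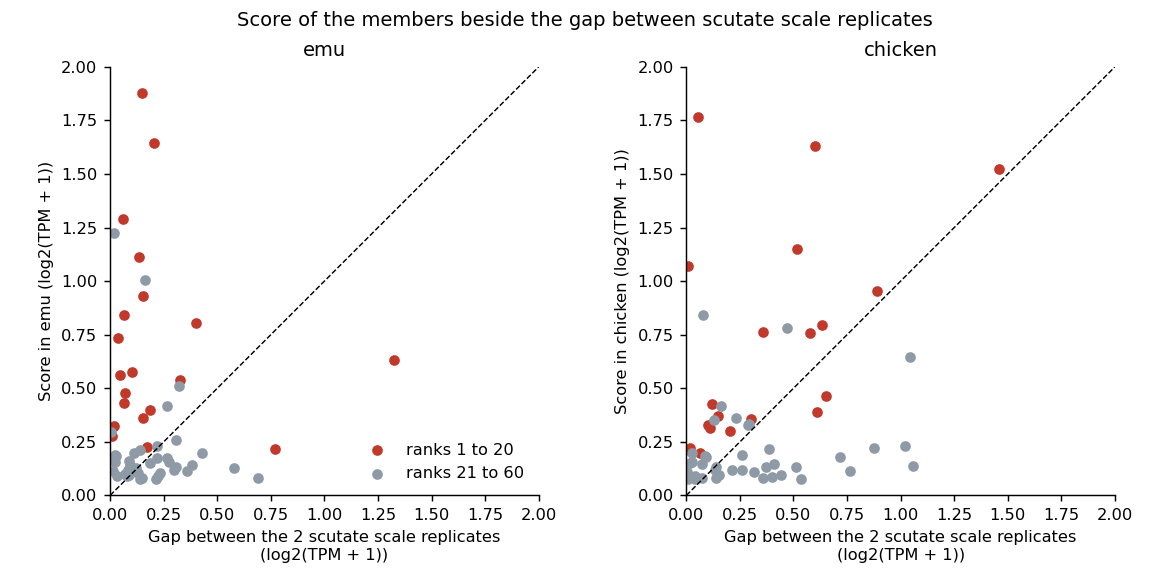
Score of each of the 60 members (vertical axis) against the gap between the 2 scutate scale replicates of the same bird (horizontal axis), both in log2(TPM + 1), for emu on the left and chicken on the right. Points above the dashed line of equality, 40 in emu and 36 in chicken, have a score larger than the replicate gap, and most of the members at ranks 21 to 60 lie low and close to the line or under it.

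The level of the members varied widely. Mean TPM in scutate scale ranged from 6.22 to 2753 in emu with a median of 42.0, and from 11 to 2036 in chicken with a median of 37.1. The medians over the 5091 genes that reached the TPM minimum were 37.9 in emu and 36.3 in chicken. The most abundant member in both birds was the gene at rank 31, with 2727 and 2780.3 TPM in emu scutate scale against 2274 to 2424 in the other emu samples. Its chicken values were 1776 and 2297 TPM in scutate scale against 1521 to 2025 in the other samples, and so overlapped. Together the 60 members held 1.49% and 1.51% of the listed TPM in emu scutate scale, against 0.943% to 1.18% in the other emu samples. In chicken they held 1.11% and 1.13% in scutate scale, against 0.693% to 0.827%. The higher share in scutate scale follows from the rule, which chose genes with their highest mean there. The gene at rank 31 held 2727 of the members' 8206 TPM in emu scutate scale replicate 1. In chicken scutate scale replicate 1 it held 1776 of 6159 TPM. It was also abundant in the other appendages, as given above, so these are parts of the total and not of the higher share.

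Scores in the birds were often unequal. They were larger in emu for 36 members and larger in chicken for 24. A score of at least 0.5 in one bird stood beside a score under 0.25 in the other for 4 members in each direction. ENSGALG00000010258, at rank 18, had 5.37 and 9.87 TPM in emu scutate scale, against 2.97 and 2.33 in feather, 6.16 in reticulate scale and 3.90 in claw. In chicken it had 65.0 and 42.6 TPM in scutate scale, against 5.88 and 4.52 in feather, 14.9 and 17.9 in reticulate scale and 12.8 and 12.6 in claw. The scutate scale samples were well apart from the others in chicken (score 1.63) and overlapped with reticulate scale in emu (score 0.22). ENSGALG00000015403, at rank 12, had 34.8 and 31.2 TPM in emu scutate scale, against 27.8 and 23.2 in feather, 16.2 in reticulate scale and 21.8 in claw. In chicken it had 11.2 and 11.7 TPM in scutate scale, against 0.671 and 0.371 in feather, 0.502 and 0.997 in reticulate scale and 0.830 and 6.30 in claw. In chicken only claw replicate 2 came near scutate scale, whereas all emu samples were above 16 TPM. The converse held at rank 39, with 33.8 and 34.2 TPM in emu scutate scale against 7.38 to 13.99 in the other emu samples, and 20.3 and 11.5 in chicken scutate scale against 5.01 to 15.3 in the other chicken samples.

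Feather or reticulate scale usually came next after scutate scale. In emu the next appendage was feather for 32 members, reticulate scale for 20 and claw for 8. In chicken it was feather for 29, reticulate scale for 27 and claw for 4. Among the 5091 genes, the highest of these 3 appendages was feather for 38.7%, reticulate scale for 34.3% and claw for 27.1% in emu, and feather for 52.0%, reticulate scale for 34.3% and claw for 13.7% in chicken. The next appendage was the same in both birds for 28 members, feather for 17 of them, reticulate scale for 10 and claw for 1. Claw was the lowest appendage for 36 members in emu and 49 in chicken, and for 32 in both. Over the 5091 genes claw was the lowest of the 3 for 44.0% in emu and 65.2% in chicken. The emu shares rest on 1 reticulate scale and 1 claw library.

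**Figure D4:**
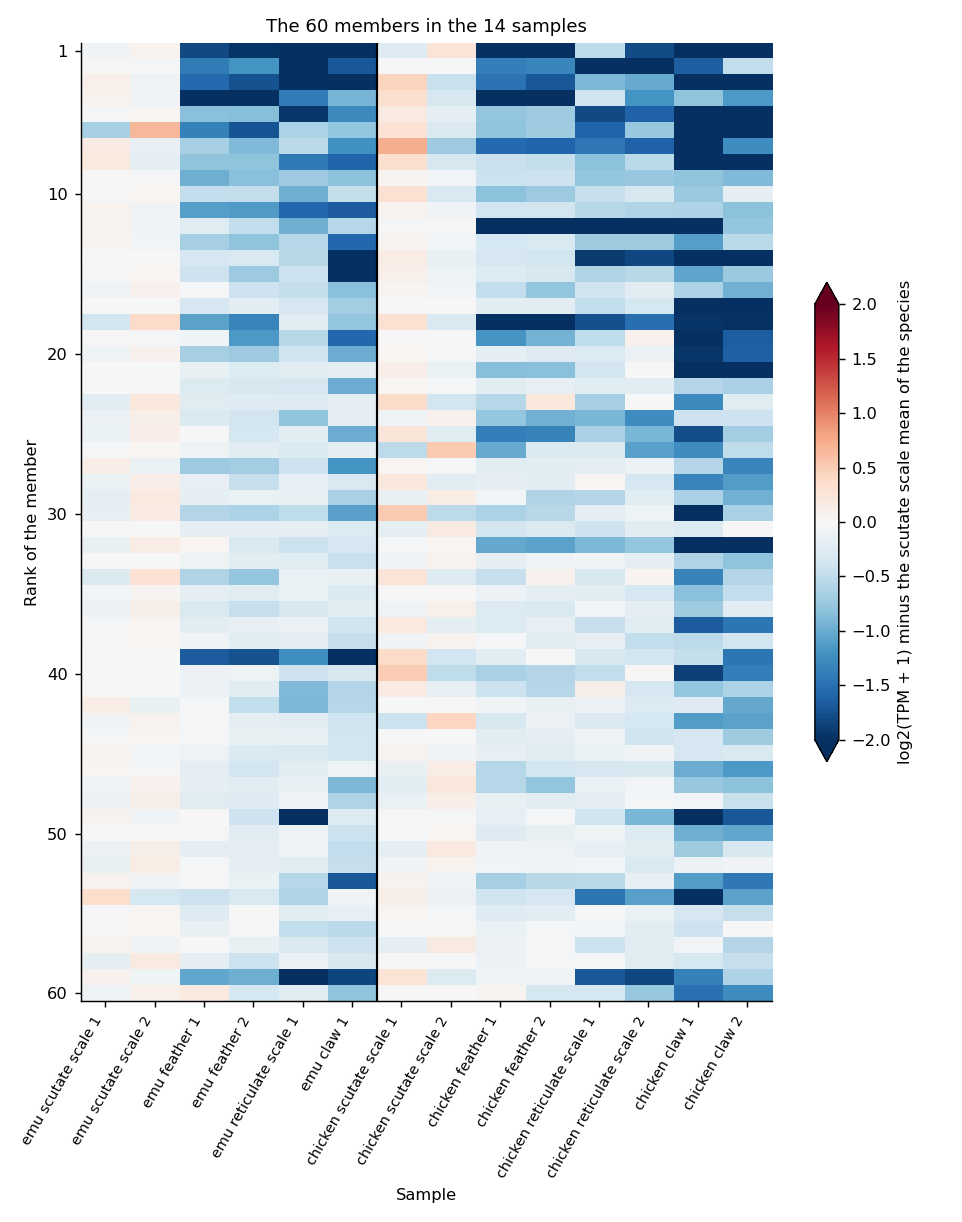
Each row is a member in rank order and each column a sample, with emu to the left of the black line and chicken to the right. Colour gives log2(TPM + 1) minus the scutate scale mean of the same bird, cut at -2 and 2, so the scutate scale columns are near white and blue marks samples below them. The first 20 rows are mostly darker than the rest, and the chicken claw columns hold much of the dark blue.

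The rule did not compare emu with chicken, and this difference was tested. It did use the scutate scale and feather means of both birds, so the values tested are not free of the rule. All 60 members were among the 7563 genes tested with limma, having passed a filter of at least 1 TPM in at least 2 samples by way of the TPM minimum in scutate scale. A gene was called at a Benjamini-Hochberg adjusted p under 0.05 over all tested genes. In scutate scale, 36 of the 60 members (60%) differed between emu and chicken, against 63.3% of all tested genes and 59.9% of the 5091 genes at the scutate scale minimum. Of these, 16 (26.7%) were higher in emu, against 34.1% of all genes, and 20 (33.3%) were lower, against 29.2%. Among the 5091 genes, 30.5% were higher and 29.4% lower. The median log2 difference was 0.09 for the members, 0.05 for all tested genes and 0.0 for the 5091. Incubation temperature, the scaling of the emu libraries and the assignment of emu transcripts to chicken IDs cannot be told apart from species here. The members were called between the birds about as often as the 5091 genes at the scutate scale minimum, and nothing further is read from these shares.

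ENSGALG00000004227, at rank 11, was the clearest of those higher in emu scutate scale. It had 83.3 and 75.8 TPM in emu scutate scale and 21.1 and 18.9 TPM in chicken scutate scale, a log2 difference of 1.94 (SE 0.12, limma adjusted p 1.01e-06). The groups did not overlap. The gene at rank 41 had 78.1 and 78.0 TPM in emu and 23.3 and 18.5 TPM in chicken, a log2 difference of 1.86 (SE 0.17, limma adjusted p 1.17e-05). That at rank 34 had 76.1 and 113.9 TPM in emu and 30.4 and 21.04 TPM in chicken, a log2 difference of 1.84 (SE 0.31, limma adjusted p 0.000657). Both lay above chicken in each emu sample. ENSGALG00000010258, whose sample values are given above, had a log2 difference of -2.69 (SE 0.29, limma adjusted p 3.41e-05) and was the most strongly lower member in emu. The gene at rank 45 had 6.50 and 5.94 TPM in emu scutate scale and 19.98 and 17.9 TPM in chicken scutate scale, a log2 difference of -1.46 (SE 0.14, limma adjusted p 2.07e-05). ENSGALG00000012116, at rank 8, had 13.4 and 9.87 TPM in emu and 42.1 and 26.4 TPM in chicken, with a log2 difference of -1.46 (SE 0.23, limma adjusted p 0.000477). Of the 7 members with the highest ranks, ENSGALG00000017119 was called higher in emu (0.97, SE 0.31, limma adjusted p 0.0222) and ENSGALG00000016809 lower (-0.55, SE 0.17, limma adjusted p 0.0159). The first call was lost without any 1 of the 4 scutate scale libraries (adjusted p 0.0717 to 0.0889), and the second without chicken scutate scale replicate 1 (0.119) or emu scutate scale replicate 1 (0.0744). The other 5 of these 7 missed the threshold, with log2 differences of -0.38 to 0.97.

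In feather the same test called 34 members (56.7%), against 62.4% of all tested genes. Of these 17 (28.3%) were higher in emu, against 32.8% of all genes, and 17 (28.3%) lower, against 29.6%. Among the 5091 genes at the scutate scale minimum, 59.5% were called, with 31.2% higher and 28.3% lower. ENSGALG00000015403 had the greatest log2 difference, 4.12 (SE 0.51, limma adjusted p 9.02e-05), and was higher in both emu feather samples than in both chicken ones, as given above. The gene at rank 41, with 71.9 and 66.9 TPM in emu feather and 15.2 and 13.7 TPM in chicken feather, followed with 2.19 (SE 0.17, limma adjusted p 4.3e-06). ENSGALG00000001370 was higher in emu feather by 1.62 (SE 0.48, limma adjusted p 0.0148), a call lost without chicken feather replicate 1 (adjusted p 0.0551), chicken feather replicate 2 (0.0598) or emu feather replicate 1 (0.074). The genes at ranks 59, 8 and 45 were lower, with log2 differences of -2.01, -1.80 and -1.45 (SE 0.25, 0.23 and 0.14; limma adjusted p 8.67e-05, 0.000127 and 2.3e-05). Of the 36 members called in scutate scale and the 34 called in feather, 29 were called in both, which is 80.6% of the scutate scale calls and 85.3% of the feather calls. All 29 had the same direction, 14 higher and 15 lower in emu. Over all tested genes the shared calls were 81.6% of the scutate scale calls and 82.8% of the feather calls, and 98.7% of them had the same direction. The pair of contrasts compares different libraries, but both use the same estimate of the spread per gene, from 1 model of all samples. The rule also used the scutate scale and feather means of both birds, so the contrasts are not independent.

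**Figure D5:**
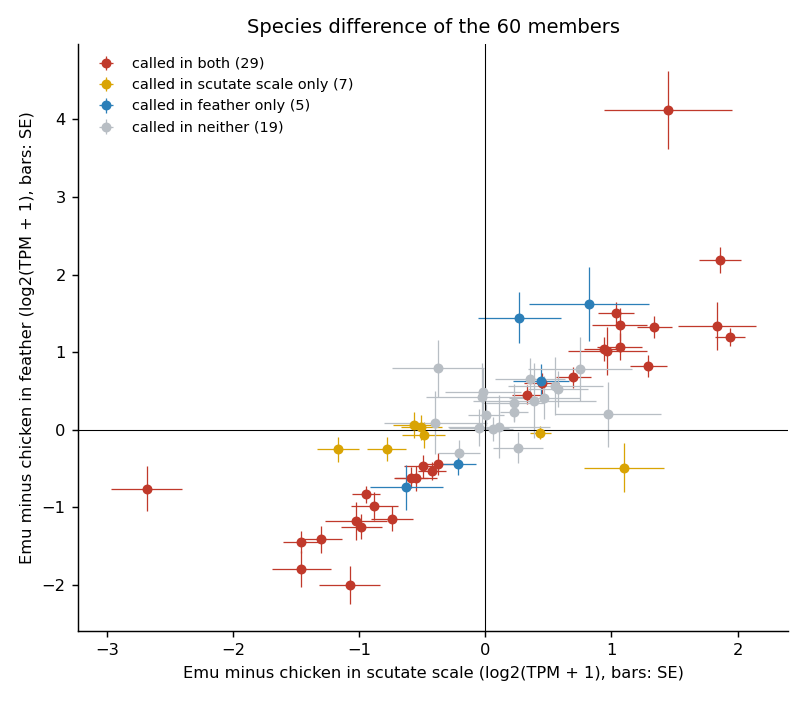
Emu minus chicken difference of each member in scutate scale (horizontal axis) and in feather (vertical axis), both as log2(TPM + 1) with standard errors as bars, coloured by whether the member was called in both contrasts (29), in scutate scale only (7), in feather only (5) or in neither (19). The 29 points called in both lie in the upper right and lower left, with ENSGALG00000015403 highest at 4.12 in feather and ENSGALG00000010258 leftmost at -2.69 in scutate scale.

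The order of the other appendages in chicken was not fixed by the rule, but the score subtracts the highest of their means, so genes with 1 of these appendages high were chosen against. The contrasts between them therefore use values that the rule used. Fitted values are given for the most changed called members in each direction, and nothing is read from the shares of members called. Reticulate scale differed from feather in 10 members (16.7%), against 28.3% of all tested genes. Of these 5 (8.33%) were higher in reticulate scale, against 9.84% of all genes, and 5 (8.33%) lower, against 18.5%. ENSGALG00000006387 was higher by 1.90 (SE 0.37, limma adjusted p 0.00571), ENSGALG00000017041 by 1.76 (SE 0.28, limma adjusted p 0.00212) and ENSGALG00000010258 by 1.49 (SE 0.29, limma adjusted p 0.00539). The first of these was lost without chicken feather replicate 2 (adjusted p 0.0513) and in a fit of only the 4 libraries compared (0.0564). The gene at rank 59, with 14.03 and 12.7 TPM in reticulate scale and 44.9 and 45.0 TPM in feather, had a log2 difference of -1.68 (SE 0.25, limma adjusted p 0.00147). For ENSGALG00000000894, at rank 14, it was -1.51 (SE 0.41, limma adjusted p 0.0245), with 66.5 and 70.6 TPM in reticulate scale and 199 and 195 TPM in feather. That call was lost without any 1 of the 4 libraries compared (adjusted p 0.0817 to 0.107). ENSGALG00000017119 had a log2 difference of -1.46 (SE 0.31, limma adjusted p 0.00872), lost without chicken feather replicate 2 (0.0555) or chicken reticulate scale replicate 1 (0.0685). Fewer members were called without any 1 of the 4 libraries compared (4 to 8, against 10), and fewer of all tested genes were called too. In emu, where reticulate scale is 1 library and no test was made, 0 members were at least 2-fold higher in reticulate scale than in feather, against 7.63% of all genes, and 4 were at least 2-fold lower, against 4.79%.

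Claw was below feather for many members, as it was for genes in general. In chicken, claw differed from feather in 33 members (55.0%), against 52.0% of all tested genes, with 3 (5%) higher, against 9.48%, and 30 (50%) lower, against 42.5%. Among the 5091 genes at the scutate scale minimum, 56.9% were called, with 7.25% higher and 49.7% lower in claw. The median log2 difference was -0.50 for the members, -0.36 for all tested genes and -0.42 for the 5091. Median-ratio rescaling, which brought the median of all genes to 0.00, left 7 members higher and 14 lower. This was 33.3% of calls higher, against 9.09% as deposited, and quantile normalization gave the same split. Of all tested genes, 1566 were called higher and 1554 lower after median-ratio rescaling, and 1357 higher and 1636 lower after quantile normalization. The fit of only the 4 libraries compared called 21 members and 35.3% of all tested genes, against 52.0% in the full fit. Without chicken feather replicate 1 or 2, fewer members (24 and 19, against 33) and fewer of all tested genes were called. ENSGALG00000000894 had 9.16 and 32.02 TPM in chicken claw and 199 and 195 TPM in feather, a log2 difference of -3.43 (SE 0.41, limma adjusted p 0.0002). ENSGALG00000016809 had -2.70 (SE 0.17, limma adjusted p 9.64e-06) and ENSGALG00000015701, at rank 17, had -2.62 (SE 0.28, limma adjusted p 0.000123), with 13.03 and 29.99 TPM in claw and 127 in both feather samples. The 3 members higher in claw were ENSGALG00000017041 at 1.57 (SE 0.28, limma adjusted p 0.00144), ENSGALG00000010258 at 1.15 (SE 0.29, limma adjusted p 0.00817) and the gene at rank 24 at 0.45 (SE 0.16, limma adjusted p 0.0416). The call at rank 18 was lost without chicken feather replicate 2 (adjusted p 0.0614). That at rank 24, with 16.9 and 16.8 TPM in claw and 12.9 and 11.2 TPM in feather, was lost without either chicken claw, either chicken feather or either emu feather library (adjusted p 0.062 to 0.216) and in the fit of only the 4 libraries compared (0.0941). In emu, with 1 claw library and no test, 1 member was at least 2-fold higher in claw than in feather, against 7.59% of all genes, and 5 were at least 2-fold lower, against 9.63%. Claw was below feather in both birds for 43 members (71.7%), against 47.6% of all tested genes. The latter include genes under the scutate scale minimum, and the rule used these means, so nothing is read from this share.

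Claw differed from reticulate scale in chicken in 31 members (51.7%), against 46.2% of all tested genes and 51.6% of the 5091, with 3 (5%) higher, against 10.9%, and 28 (46.7%) lower, against 35.3%. Among the 5091 genes, 9.41% were higher and 42.2% lower in claw. The median log2 difference was -0.45 for the members, -0.25 for all tested genes and -0.35 for the 5091. After median-ratio rescaling 5 members were higher and 17 lower (22.7% of calls higher, against 9.68% as deposited), and after quantile normalization 5 were higher and 19 lower. All tested genes then gave 1660 higher and 1551 lower after median-ratio rescaling, and 1439 higher and 1594 lower after quantile normalization. A fit of only these 4 libraries called 11 members and 14.5% of all tested genes, against 46.2% in the full fit. ENSGALG00000019304 had 22.0 and 21.6 TPM in chicken claw and 133 and 124 TPM in reticulate scale, a log2 difference of -2.50 (SE 0.24, limma adjusted p 9.78e-05), and did not overlap. ENSGALG00000015701 and the gene at rank 21 were lower by similar amounts, with differences of -2.42 (SE 0.28, limma adjusted p 0.000231) and -2.105 (SE 0.17, limma adjusted p 5.01e-05). ENSGALG00000017119 was higher in claw by 1.73 (SE 0.31, limma adjusted p 0.00201), with 95.2 and 212 TPM in claw and 34.4 and 51.7 TPM in reticulate scale. The genes at ranks 59 and 24 were higher by 0.77 (SE 0.25, limma adjusted p 0.0288) and 0.66 (SE 0.16, limma adjusted p 0.0088). The call at rank 59 was lost without chicken claw replicate 2 (adjusted p 0.161), reticulate scale replicate 1 (0.0759) or replicate 2 (0.117), and that at rank 24 without reticulate scale replicate 2 (0.0582). All 3 higher calls were lost in the fit of only these 4 libraries (adjusted p 0.0814 to 0.16). In emu, claw was below reticulate scale for 41 members, with a median log2 difference of -0.18 for the members and -0.07 for all tested genes, from 1 library each. Claw was below reticulate scale in both birds for 38 members (63.3%), against 41.0% of all tested genes. The rule used these means, so nothing is read from these values. The claw contrasts with feather and with reticulate scale share the claw libraries. The part of the low median TPM of these libraries in the members' claw values was not tested beyond the rescaling given here.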

How the data were processed

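Strand-specific polyadenylated RNA libraries were made from column-purified total RNA of dispase-separated epidermis (10 mg/mL, 4 °C, 13 h), per the labels' protocols. CASAVA, TopHat2 2.0.6 and HTSeq 0.5.3p9 were used per the submitters' processing notes, which give no order; genome builds and the assignment of emu transcripts to chicken IDs are not given in the sources used here. The authors deposited a single table, whose values are a score read here as the square root of TPM, because squaring the emu columns gives totals of 550000 each. Values were squared to TPM and analysed as log2(TPM + 1), which understates changes of low genes. The planned tests assumed TPM and were kept after squaring. Depth is unknown, so no counting error or interval is given. The 7563 genes that reached 1 TPM in 2 or more samples were fitted with limma 3.58.1 in R 4.3.3, in 1 model of the 8 group means with 6 residual degrees of freedom and an intensity trend, so that groups of 1 or 2 samples share an estimate of the spread. Adjustment of p-values followed Benjamini and Hochberg over all genes fitted, and the code was tested on simulated data. Replicates were compared, and 0 genes had identical values above 0. Genes described are the first 20 ranks, the 3 most changed called members in each direction of each contrast, and ranks 58 to 63. Ranks 31 and 39 were added after their values were seen. The gene lists and cell markers planned could not be used, since 0 IDs matched a symbol. The members, lists and tests were chosen with earlier results of these data known. Python 3.11.15, numpy 2.4.6, pandas 2.3.3 and matplotlib 3.10.9 were used. Alternatives were the pseudocount, filters, scalings, the eBayes trend, the replicate block, smaller fits and leaving out each replicate; scaling to a common total was added after seeing the data.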

Additional observations from a re-analysis of the deposited data

Results flagged for a closer look

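Among the first 20 members, 32 differences between reticulate scale, claw and feather were called in chicken, and 5 of them (15.6%) went the other way in emu without overlap between the samples compared. Over all tested genes this held for 25.7% of the calls in the same 3 contrasts. Emu claw and emu reticulate scale are 1 library each, so these could not overlap, and the absence of overlap adds nothing there. For claw against reticulate scale the share over all tested genes was 30.4%. It was 22.6% for reticulate scale against feather and 23.2% for claw against feather. The rule used the values compared here in both birds, so nothing is read from these shares. The difference between the birds was not tested in any of them, and emu has 1 reticulate scale and 1 claw library. ENSGALG00000006387 had a reticulate scale minus feather difference of -0.78 log2 units in emu and 1.90 in chicken. For ENSGALG00000004937, at rank 9, this difference was 0.17 in emu and -0.34 in chicken, and its claw minus feather difference was 0.087 in emu and -0.42 in chicken. Its emu claw library, at 123.1 TPM, lay just above emu feather at 110.0 and 121.9. The chicken call between reticulate scale and feather was lost after median-ratio rescaling (limma adjusted p 0.113) and quantile normalization (0.183). It was also lost without chicken feather replicate 1 (0.0764), feather replicate 2 (0.0922) or reticulate scale replicate 1 (0.0743). The call between claw and feather was lost after both of these scalings (0.919 for median-ratio and 0.298 for quantile). ENSGALG00000002282 had a claw minus feather difference of 0.76 in emu and -2.32 in chicken, with 40.7 TPM in emu claw against 27.1 and 20.7 in emu feather, and 3.08 and 3.53 in chicken claw against 19.8 and 21.3 in chicken feather. ENSGALG00000016809 had a claw minus reticulate scale difference of 0.67 in emu and -1.75 in chicken.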

How the results depend on the processing

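The count of members called between emu and chicken stayed within 1.5 times its value under every alternative run, with 26 to 41 in scutate scale and 26 to 38 in feather when a replicate was left out. Leaving out a replicate gave 4 to 12 members for reticulate scale against feather, 19 to 35 for claw against feather and 23 to 34 for claw against reticulate scale. Claw against feather gave 21 members after median-ratio rescaling, after quantile normalization and in a fit of only the groups compared. The shares of all tested genes called were then 41.3%, 39.6% and 35.3%, against 52.0% in the full fit as deposited. Claw against reticulate scale gave 11 members in a fit of only the groups compared, with 14.5% of all tested genes called, against 46.2%. Leaving out a replicate moved the calls over all tested genes as well. The claw minus feather difference of ENSGALG00000004937 became 0.018 after median-ratio rescaling, and that of ENSGALG00000004227 became 0.063 after that rescaling and 0.136 after quantile normalization, none of them called; both genes were called lower in claw as deposited. Of 2331 recomputed values of single members, 109 lost a call, 49 gained a call and 3 turned direction. Adding a replicate block gave counts of 36, 34, 11, 33 and 30 for the 5 contrasts in the order above, against 36, 34, 10, 33 and 31 without it. The differences between replicates 1 and 2 correlated between the groups compared at -0.007 to 0.185. These correlations cannot show whether any samples are paired. Of 111 named values the block ended 3 calls, at rank 18 between the birds in feather (limma adjusted p 0.0575) and at ranks 19 and 24 between claw and feather (0.0502 and 0.0581), and 4 gained a call. The rule chose 26 to 58 of the 60 members again when a replicate was left out, and 16 were chosen in all 14 of these settings, 15 of them among the first 20. It chose 60 with a pseudocount of 0.1, 44 after median-ratio rescaling, 42 after quantile normalization and 57 after scaling to a common total. When the lowest scutate scale sample had to exceed the highest other sample, 22 members were left and no other gene scored above 0. Where a value moved, the cause was not tested.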
